A study of Homo sapiens with 23 samples.

Results

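The subject is 10 genes that write, keep, remove or act beside DNA methylation and that silence retroelements: DNMT1, DNMT3A, DNMT3B, UHRF1, TET1, TET2, TET3, SETDB1, TRIM28 and EZH2. They were taken by symbol, through their NCBI Gene IDs, from a table of 21658 genes, and all 10 were measured in each of 23 RNA-seq libraries. The libraries came from 4 established ovarian cancer cell lines, Kuramochi, OVSAHO, OV-90 and EFO-21, each as the parental culture and as a line made resistant to prexasertib, an inhibitor of the checkpoint kinase CHK1, by stepwise exposure to rising drug concentrations. Each of the 8 groups held 3 libraries, except parental OV-90, which held 2. No other allele, agent or time point is labelled, and the sources do not say whether a resistant line is 1 clone or a mixed population, nor whether the drug was present at harvest. The libraries are labelled as biological replicates of a line, so the tests measure the spread between cultures of 1 derived line and not between independent derivations of resistance.

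DNA methylation at CpG sites is copied after each round of DNA replication by DNMT1, which UHRF1 guides to half-methylated DNA, while DNMT3A and DNMT3B can methylate DNA that carried no mark. TET1, TET2 and TET3 oxidise methylcytosine and so open the way to its removal. Retroelements are also held silent on histones: TRIM28 is brought to them by KRAB zinc finger proteins and recruits SETDB1, which methylates H3K9, a lysine of histone H3, and EZH2, the catalytic subunit of PRC2, methylates H3K27, another lysine of that histone. Inhibitors of DNA methyltransferases are known to raise transcripts of endogenous retroviruses in ovarian cancer cells, which is why these genes are of interest where resistant lines are examined for retroviral and interferon genes.

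DNMT1, UHRF1 and EZH2 are known as genes of proliferating cells under E2F control. Their promoters are shown because all 3 were called higher in resistant OVSAHO and EFO-21, as described with the values. The EZH2 rise in EFO-21 was small (0.18), and its call was lost when any 1 of several libraries was left out. In Kuramochi EZH2 differed by −1.01, whereas DNMT1 (0.19) and UHRF1 (0.08) did not fall. Promoter windows of 250 bases before to 50 bases after a RefSeq gene start (GRCh38.p14) were given for 9 of the 10 genes, in 22 windows. They were searched on both strands for the E2F octamers TTTCCCGC, TTTCGCGC, TTTGGCGC and TTTGCCGC, none of which is its own reverse complement. An octamer stood in 4 of the 22 windows, and these belonged to 3 genes, DNMT1, UHRF1 and EZH2. The following stretches of 30 bases, read 5′ to 3′ on the strand of the gene, hold the octamer or its reverse complement in capitals.
DNMT1, chr19:10194937-10194966, minus strand, first capital 2 bases before the start: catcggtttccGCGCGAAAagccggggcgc
UHRF1, chr19:4909476-4909505, plus strand, first capital 14 bases before the start: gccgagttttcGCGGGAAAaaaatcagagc
UHRF1, another start, chr19:4909973-4910002, plus strand, first capital 160 bases before that start: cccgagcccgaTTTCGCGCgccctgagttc
EZH2, chr7:148884272-148884301, minus strand, first capital at base 2 after the start, counting the start as base 1: gggctgccgcgTTTGGCGCtcggtccggtc
Of all 35116 promoter windows 3.31% held 1 of the 4 octamers, and of the 27305 genes with a window 3.99% did. A match of letters is a description and not evidence of binding.

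The values are the authors' quantile-normalised log2 gene values, so a difference of 1 is a 2-fold change, and levels are compared here between libraries and never between genes. Read counts are not part of the table, and the depth behind a value is therefore unknown. The 10th percentile of a library lay between 1.70 and 1.87, and every value of the 10 genes was above it. Some libraries stood apart in a way that followed transcript length. Among genes above the median level, the longest genes (10% of genes, with an exonic length of at least 7232 bases) were lower in parental OV-90 library 2 than in library 3, at deviations of −0.439 and 0.439 from their mean, and they were high in parental Kuramochi library 4 (0.388) and low in resistant Kuramochi library 18 (−0.223). The library numbers are names from the table and carry no order. Between resistant and parental OV-90 these longest genes differed by a median of 0.662 and the shortest 10% (at most 992 bases) by −0.457, whereas in OVSAHO the medians were 0.199 and −0.120, in EFO-21 0.084 and −0.189, and in Kuramochi −0.072 and −0.106. DNMT3A, TET1, TET2 and TET3 (9501 to 12060 exonic bases) reach that length, and DNMT1, at 7157 bases, lies just under it. Differences of the 10 genes between resistant and parental libraries are therefore also given after a length adjustment, added once the pattern had been seen. They are given wherever it adds or ends a call, turns a direction or moves a called value by over 1.5 times. Differences between parental lines are given without it. In bulk RNA, fewer cells of a type and less RNA per cell cannot be told apart. Of the 10 epithelial markers, 9 fell in resistant Kuramochi, 9 in OVSAHO, 3 in OV-90 and 7 in EFO-21, beside 23.3%, 16.2%, 17.9% and 23.4% of all genes. None rose except CDH1 in EFO-21, by 1.39 (adjusted p = 0.000358, limma). PAX8, a marker of the Mullerian lineage, averaged 2.10 in parental OV-90 against 8.44 to 9.37 in the other parental lines.

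The parental lines already differed in these genes. Over the 10 genes and the 6 pairs of lines, 45 of 60 differences passed the test (limma, adjusted p under 0.05), against a mean of 73.0% over all genes. Parental OVSAHO had the highest DNMT1, at 10.31 ± 0.10 (SD, n = 3), and parental OV-90 the lowest, at 7.64 ± 0.33 (n = 2), a gap of 2.68. All neighbours in the DNMT1 order, OVSAHO, EFO-21, Kuramochi and OV-90, differed beyond their spread. DNMT3A ran another way: OV-90 stood at 7.02 ± 0.04 (n = 2) and Kuramochi at 6.30 ± 0.08 (n = 3), whereas EFO-21 at 4.45 ± 0.09 and OVSAHO at 4.35 ± 0.08 (n = 3 each) did not pass the test against each other (adjusted p = 0.288, limma). TRIM28 was highest in OV-90 (11.38 ± 0.04, n = 2) and lowest in EFO-21 (9.53 ± 0.06, n = 3), with Kuramochi and OVSAHO between them and not apart from each other (adjusted p = 0.457, limma). TET1 was lowest in EFO-21, at 2.52 ± 0.33 (n = 3), and the other three lines formed a run in which no neighbours passed the test, though its ends, OV-90 and Kuramochi, did (adjusted p = 0.0321).

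For EZH2, parental OV-90 and OVSAHO stood at 8.35 and 8.32 and did not pass the test against each other (adjusted p = 0.803, limma), and Kuramochi and EFO-21 followed at 7.64 and 7.53. UHRF1 was highest in Kuramochi, at 6.69, with OV-90 next at 6.49 (adjusted p = 0.0830, limma), and lowest in OVSAHO, at 5.69. DNMT3B was higher in OV-90 and EFO-21 (6.45 and 6.30) than in OVSAHO and Kuramochi (5.40 and 5.18), and neither of these pairs passed the test within itself. TET2 was higher in EFO-21 and Kuramochi (5.23 and 5.10) than in OVSAHO and OV-90 (3.92 and 3.37). TET3 was lower in OV-90 (4.01) than in the other three (5.05 to 5.40). SETDB1 was likewise lowest in OV-90, at 6.51, against 7.18 to 7.49 elsewhere. These parental comparisons carry no length adjustment. The longest genes, whose length TET2 and TET3 reach, were lower in parental than in resistant OV-90, where TET3 stood at 5.70. The part of transcript length in the low parental OV-90 values of DNMT1, TET2 and TET3 was not tested.

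**Figure D1:**
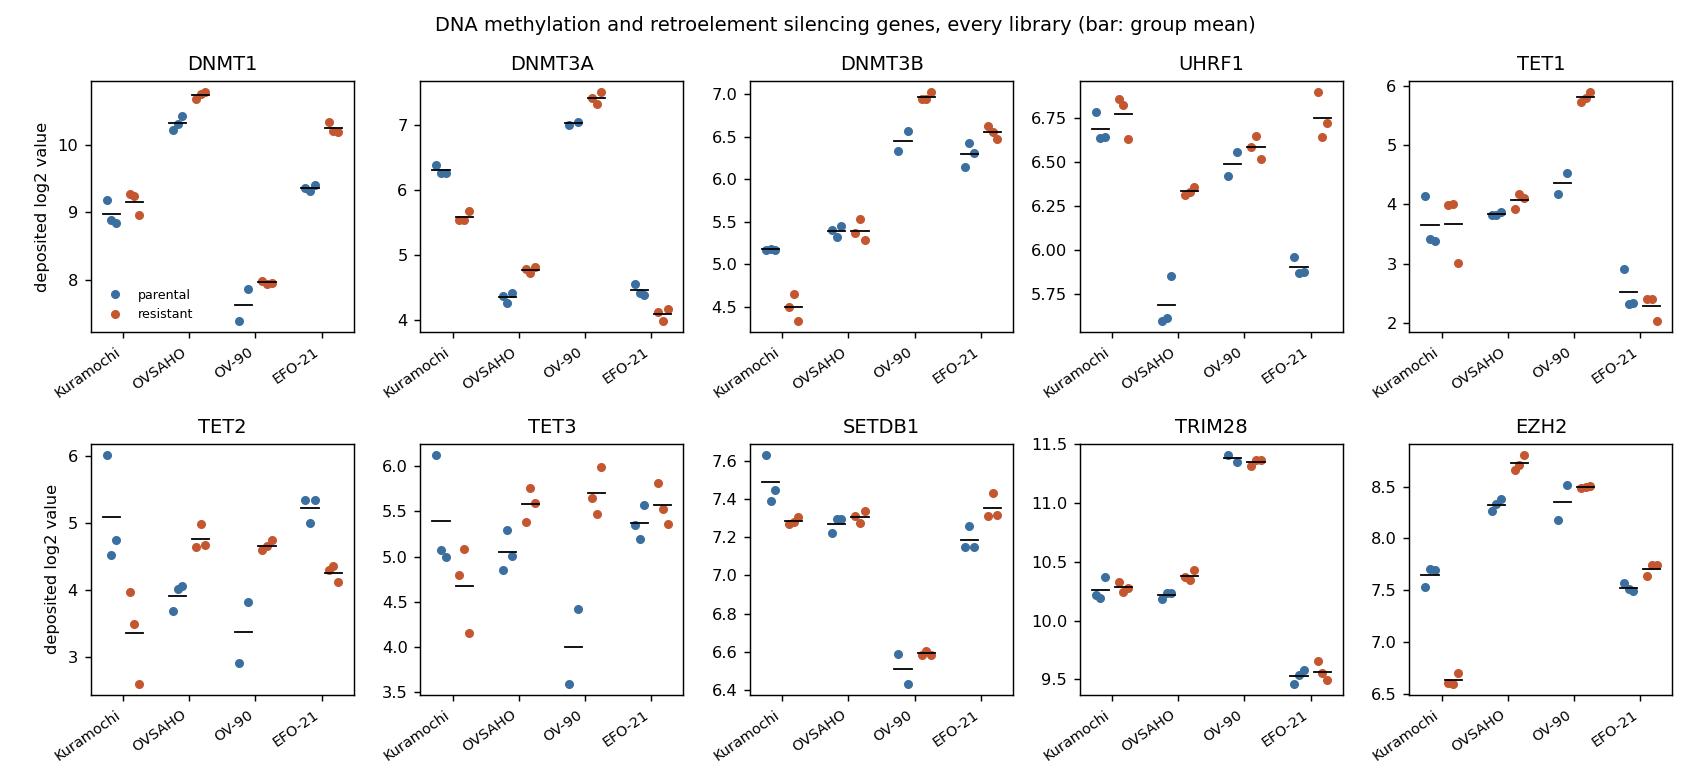
Deposited log2 value (y axis, a separate scale for each gene) of the 10 genes in every library, by cell line (x axis), with parental libraries in blue, resistant libraries in orange and a bar at each group mean. DNMT1 and UHRF1 sit higher in all resistant OVSAHO and EFO-21 libraries than in their parental libraries, EZH2 sits near 6.6 in all resistant Kuramochi libraries against 7.5 to 7.7 before, and the 3 TET genes sit higher in all resistant OV-90 libraries.

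The comparison of each resistant line with its parent asks which of these genes changed as resistance was acquired. In resistant Kuramochi no member rose and 4 of 10 fell (DNMT3A, DNMT3B, TET2, EZH2), in OVSAHO 6 rose and none fell (DNMT1, UHRF1, DNMT3A, TET2, TRIM28, EZH2), in OV-90 5 rose and none fell (DNMT3A, DNMT3B and the 3 TET genes), and in EFO-21 3 rose (DNMT1, UHRF1, EZH2) and TET2 fell. These calls are at an adjusted p under 0.05 in limma with no minimum fold. Over all genes the same test called 46.9% in Kuramochi, 33.3% in OVSAHO, 36.0% in OV-90 and 48.4% in EFO-21, so 4 of 10 members in Kuramochi and in EFO-21 is a share near the background. By direction the background was 23.6% higher and 23.3% lower in Kuramochi, 17.1% and 16.2% in OVSAHO, 18.1% and 17.9% in OV-90, and 25% and 23.4% in EFO-21. The median difference of the members was −0.44 in Kuramochi, 0.41 in OVSAHO, 0.36 in OV-90 and 0.17 in EFO-21, beside medians over all genes of −0.02, 0.00, −0.06 and 0.01. Groups did not overlap for 5, 8, 6 and 7 of the members, beside 59.2%, 48.4%, 69.1% and 59.7% of all genes. A change of at least 2-fold was reached by 2 members in Kuramochi (TET2, EZH2) and 3 in OV-90 (the TET genes), and by none in OVSAHO or EFO-21, beside 22.5%, 16.1%, 7.76% and 14.3% of all genes. After the length adjustment the calls were 1 higher and 5 lower in Kuramochi, 5 and 0 in OVSAHO, 2 and 0 in OV-90, and 3 and 2 in EFO-21, beside 53.8%, 35.5%, 35.8% and 51.0% of all genes with a length. In OV-90, 0 of 10 members passed without any 1 of the resistant libraries, 4 without parental library 2 and 7 without parental library 3.

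**Figure D2:**
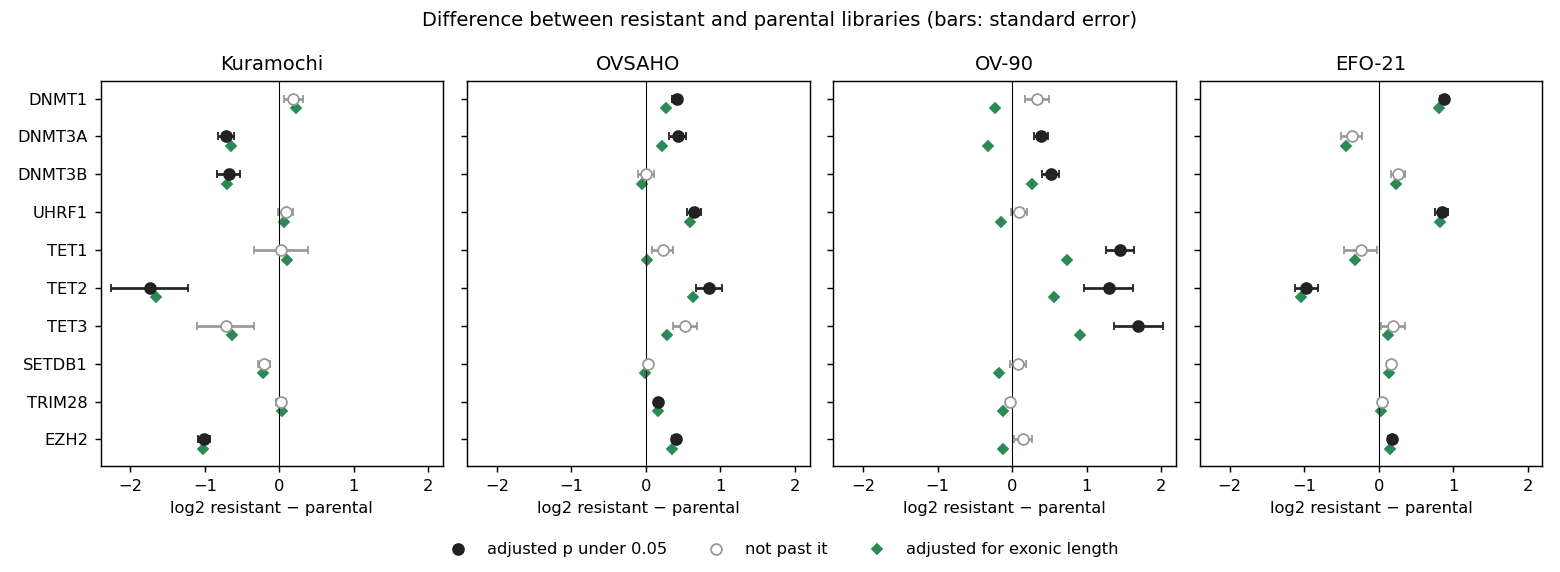
Difference between resistant and parental libraries on the log2 scale (x axis) for each gene (rows) in the 4 lines (panels), with bars for the standard error, filled circles at an adjusted p under 0.05, open circles otherwise, and green diamonds for the value after the exonic length adjustment. The diamonds lie close to the circles in Kuramochi and EFO-21 and well to the left of them in OV-90, where TET3 moves from 1.70 to 0.91 and DNMT3A from 0.38 to −0.32.

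DNMT1, the maintenance methyltransferase (chr19:10244018-10341962, GRCh37, minus strand), rose most in EFO-21. The parental EFO-21 libraries stood at 9.37, 9.32 and 9.41 and the resistant libraries at 10.33, 10.20 and 10.19. All resistant libraries were above all parental ones, by 0.87 ± 0.05 (SE), or 1.83-fold (adjusted p = 7.71e-05, limma). In OVSAHO, where DNMT1 was already highest, it went from 10.21, 10.31 and 10.42 to 10.67, 10.75 and 10.77. That rise of 0.41 ± 0.06 (adjusted p = 0.00429, limma) came without overlap and was 0.27 after the length adjustment, still past the test. In OV-90 DNMT1 stood at 7.40 and 7.87 in the parental libraries and 7.995, 7.95 and 7.96 in the resistant ones. The difference of 0.33 did not pass the test (adjusted p = 0.148, limma), was −0.23 after the length adjustment, and was 0.097 without parental library 2. Kuramochi, at 9.18, 8.89 and 8.84 against 9.27, 9.25 and 8.97, overlapped between groups (0.19, adjusted p = 0.261, limma), but passed the test after the length adjustment (0.22, adjusted p = 0.0131).

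UHRF1, which brings DNMT1 to newly replicated DNA (chr19:4903092-4962165, plus strand), rose in OVSAHO and EFO-21, as DNMT1 did. In OVSAHO it went from 5.60, 5.62 and 5.85 to 6.32, 6.33 and 6.36. The groups were well apart, by 0.64 ± 0.09 or 1.56-fold (adjusted p = 0.00446, limma). In EFO-21 it went from 5.96, 5.87 and 5.88 to 6.89, 6.64 and 6.72, a rise of 0.84 ± 0.09 or 1.80-fold without overlap (adjusted p = 0.000663, limma). Kuramochi (6.78, 6.64 and 6.64 against 6.86, 6.82 and 6.63) and OV-90 (6.42 and 6.56 against 6.58, 6.64 and 6.52) overlapped between groups, with differences of 0.08 and 0.09, the latter −0.15 after the length adjustment. The effect in Kuramochi minus that in EFO-21 was −0.76 (adjusted p = 5.94e-05, limma), the effect in OV-90 minus that in EFO-21 was −0.75 (adjusted p = 0.000180), and EFO-21 and OVSAHO did not pass that test (adjusted p = 0.240). Over the 23 libraries the profile most like UHRF1 among genes above the median level was LOC728688, with a Pearson correlation of 0.958, and a UHRF1-like locus of that kind can share reads with UHRF1, so the split of reads between them is uncertain.

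DNMT1 and UHRF1 were set beside genes of cycling cells because both are known to follow the cell cycle. Of 21 proliferation genes, 13 rose and 3 fell in EFO-21, and 12 rose and 2 fell in OVSAHO, the lines in which DNMT1 and UHRF1 rose. In Kuramochi 5 rose and 6 fell, and in OV-90 5 rose and 4 fell. The median difference of that list was 0.35 in EFO-21, 0.26 in OVSAHO, 0.02 in Kuramochi and 0.07 in OV-90. MCM2, a subunit of the replicative helicase, rose by 0.90 in EFO-21 (adjusted p = 6.10e-05, limma), close in size to the 0.87 of DNMT1. The list did not move as 1 block in either line: CCNA2, the cyclin of S and G2 phase, fell by 1.05 in EFO-21 (adjusted p = 8.26e-05, limma), and CCNE1 fell by 0.38 in OVSAHO (adjusted p = 0.00541) where CCNE2 rose by 0.94 (adjusted p = 0.00132). The part of proliferation in the rise of DNMT1 and UHRF1 was not tested.

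**Figure D3:**
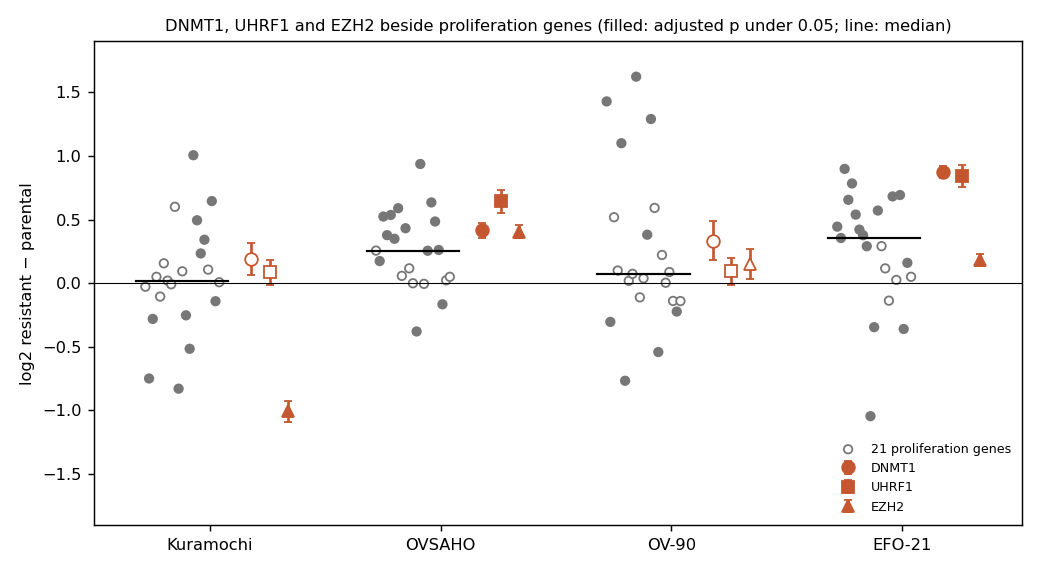
Log2 difference between resistant and parental libraries (y axis) for 21 proliferation genes (grey points, with a black line at their median) and for DNMT1, UHRF1 and EZH2 (orange, with the standard error) in the 4 lines (x axis), filled where the adjusted p is under 0.05. DNMT1 and UHRF1 lie above the median of the proliferation genes in OVSAHO and EFO-21, and EZH2 lies at −1.01 in Kuramochi, where that median is 0.02.

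DNMT3A, a de novo methyltransferase (chr2:25450724-25565459, minus strand), fell in Kuramochi. Its parental libraries stood at 6.39, 6.26 and 6.25 and its resistant libraries at 5.54, 5.54 and 5.67. The groups were well apart and the fall of −0.72 ± 0.11, to 0.607 of the parental level, passed the test (adjusted p = 0.00248, limma). In EFO-21 the parental libraries stood at 4.56, 4.42 and 4.38 and the resistant ones at 4.12, 3.99 and 4.17. All resistant values were lower there too, by −0.36, without passing the test (adjusted p = 0.0721, limma), though it did pass after the length adjustment (−0.43, adjusted p = 0.0371). In OVSAHO and OV-90 DNMT3A rose by small amounts, from 4.37, 4.26 and 4.41 to 4.78, 4.73 and 4.82 in OVSAHO (0.43, adjusted p = 0.0372, limma), and from 6.99 and 7.05 to 7.40, 7.31 and 7.49 in OV-90 (0.38, adjusted p = 0.0377). Neither rise held up in all settings. Without any 1 of the 6 OVSAHO libraries the adjusted p lay between 0.0542 and 0.110, and after the length adjustment the differences were 0.22 in OVSAHO (adjusted p = 0.218) and −0.32 in OV-90 (adjusted p = 0.114). The effect in Kuramochi differed from those in OVSAHO, OV-90 and EFO-21 (adjusted p = 6.48e-07, 1.89e-06 and 0.0267, limma).

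DNMT3B, the other de novo methyltransferase (chr20:31350191-31397165, plus strand), also fell in Kuramochi, from 5.17, 5.18 and 5.17 to 4.50, 4.66 and 4.34. The groups did not overlap, and the fall of −0.68 ± 0.15 was to 0.625 of the parental level (adjusted p = 0.0125, limma). In OV-90 it went from 6.33 and 6.57 to 6.95, 6.94 and 7.02. This rise of 0.52 ± 0.12 (adjusted p = 0.0319, limma) was 0.26 after the length adjustment and no longer passed (adjusted p = 0.0691). In EFO-21 the libraries went from 6.15, 6.43 and 6.31 to 6.62, 6.55 and 6.48, a difference of 0.26 without overlap that did not pass the test (adjusted p = 0.0644, limma). OVSAHO, at 5.41, 5.33 and 5.46 against 5.37, 5.54 and 5.28, overlapped fully (adjusted p = 0.990). Kuramochi was thus the line in which both de novo enzymes fell, and DNMT3B there differed in its effect from each other line (adjusted p between 3.04e-06 and 0.000763, limma).

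TET2, one of the methylcytosine dioxygenases (chr4:106067032-106200973, plus strand), moved in all 4 lines, down in 2 and up in 2. In EFO-21 it went from 5.35, 5.01 and 5.34 to 4.31, 4.36 and 4.12. All resistant libraries were lower, by −0.97 ± 0.16, to 0.511 of the parental level (adjusted p = 0.00360, limma). In Kuramochi it went from 6.02, 4.53 and 4.76 to 3.97, 3.50 and 2.61. Here the groups did not overlap but spread widely, and the highest parental and the lowest resistant value were in libraries 4 and 18, which stood apart by length. The fall of −1.74 ± 0.51 (adjusted p = 0.0324, limma) was −1.28 without library 4 (adjusted p = 0.0578) and −1.36 without library 18 (adjusted p = 0.0857), and it also missed the threshold without library 6 (−1.91, adjusted p = 0.0610) or library 17 (−1.81, adjusted p = 0.0740).

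In OVSAHO TET2 rose from 3.70, 4.02 and 4.06 to 4.64, 4.99 and 4.68. The rise of 0.85 ± 0.17, or 1.80-fold, came without overlap (adjusted p = 0.0144, limma), and the adjusted p was 0.0520 without resistant library 20. In OV-90 it went from 2.91 and 3.83 to 4.60, 4.66 and 4.74. All resistant values were higher, by 1.30 ± 0.33 (adjusted p = 0.0393, limma), but the length-adjusted difference was 0.57 (adjusted p = 0.0960). The effects of Kuramochi and EFO-21 did not pass the test against each other (adjusted p = 0.203), nor did those of OVSAHO and OV-90 (adjusted p = 0.519), while each line that fell differed from each line that rose (adjusted p between 7.14e-05 and 0.00746, limma).

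TET1 (chr10:70320094-70454244, plus strand) and TET3 (chr2:74212037-74335303, plus strand) changed in OV-90. TET1 went from 4.17 and 4.53 to 5.72, 5.79 and 5.88, with a wide gap between the groups (1.45 ± 0.18, 2.73-fold, adjusted p = 0.0138, limma). TET3 went from 3.60 and 4.42 to 5.65, 5.47 and 5.99, also without overlap (1.70 ± 0.32, 3.24-fold, adjusted p = 0.0249, limma). After the length adjustment these rises were 0.74 for TET1 (adjusted p = 0.0194) and 0.91 for TET3 (adjusted p = 0.0258), and the part of transcript length in them beyond that adjustment was not tested. In OVSAHO TET3 went from 4.85, 5.29 and 5.01 to 5.38, 5.75 and 5.60, above the parental libraries throughout but short of the threshold (0.53, adjusted p = 0.0515, limma), and the difference was 0.29 after the length adjustment. OVSAHO TET1, at 3.82, 3.82 and 3.87 against 3.93, 4.17 and 4.10, did not overlap either and had a difference of 0.23 (adjusted p = 0.262, limma), or 0.019 after that adjustment. In Kuramochi TET3 (6.12, 5.08 and 4.999 against 4.80, 5.08 and 4.16) and TET1 (4.13, 3.41 and 3.39 against 3.98, 4.01 and 3.01) overlapped between groups. Both genes also overlapped in EFO-21, with differences of −0.24 for TET1 and 0.19 for TET3. The interval of what could be missed there is wide, since the standard error of the Kuramochi differences was 0.38 for TET3 and 0.37 for TET1.

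**Figure D4:**
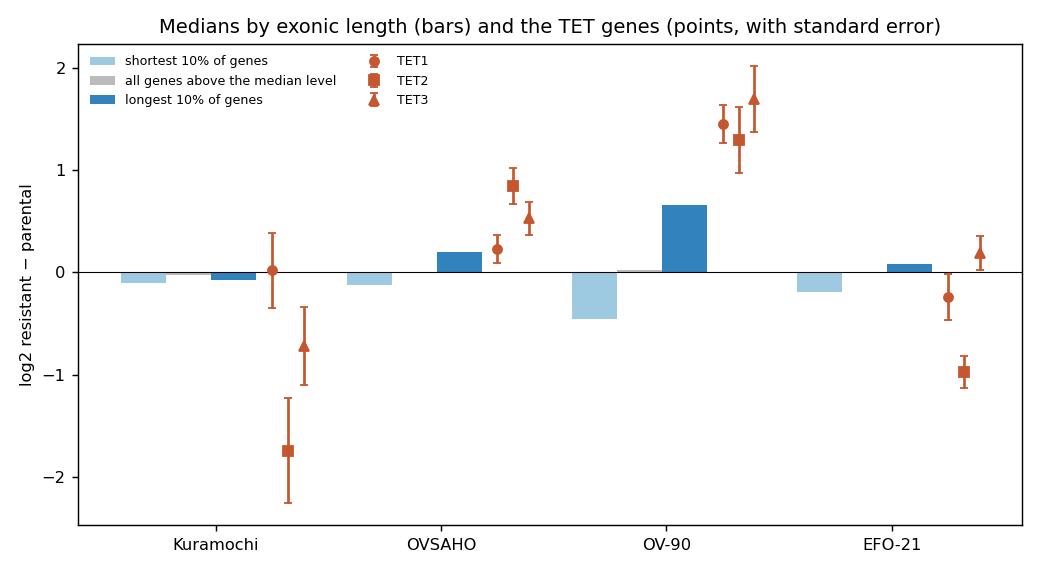
Log2 difference between resistant and parental libraries (y axis) in the 4 lines (x axis). Bars give medians over genes above the median level, for the shortest 10% by exonic length, all such genes and the longest 10%. Points give TET1, TET2 and TET3 with the standard error. In OV-90 the bars run from −0.457 to 0.662 and the TET genes lie at 1.30 to 1.70.

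SETDB1, the H3K9 methyltransferase (chr1:150898739-150937220, plus strand), passed the test in no line before the length adjustment. Its differences were −0.21 in Kuramochi (adjusted p = 0.0941), 0.04 in OVSAHO (0.597), 0.08 in OV-90 (0.552) and 0.17 in EFO-21 (0.0539, limma). After the length adjustment SETDB1 passed as lower in Kuramochi (−0.22, adjusted p = 0.0369), and its differences were −0.0094 in OVSAHO and −0.18 in OV-90. In Kuramochi the libraries went from 7.63, 7.39 and 7.45 to 7.27, 7.28 and 7.30, and in EFO-21 from 7.15, 7.26 and 7.15 to 7.31, 7.43 and 7.32. Neither pair of groups overlapped, and in opposite directions, and the effects of these 2 lines differed from each other (−0.37, adjusted p = 0.00266, limma). TRIM28, which recruits it (chr19:59055431-59062089, plus strand), rose in OVSAHO, from 10.18, 10.23 and 10.24 to 10.37, 10.35 and 10.43. That rise was small but larger than the spread, 0.17 ± 0.03 or 12.3% (adjusted p = 0.0143, limma). In the other lines TRIM28 overlapped between groups, with differences of 0.02 in Kuramochi, −0.03 in OV-90 (−0.12 after the length adjustment) and 0.04 in EFO-21 and standard errors of 0.05 to 0.06. It was the member whose effects did not pass the test of a difference between lines (adjusted p = 0.116), though they did after the length adjustment (adjusted p = 0.0321).

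EZH2, the H3K27 methyltransferase of PRC2 (chr7:148504349-148581413, minus strand), fell in Kuramochi from 7.54, 7.70 and 7.69 to 6.60, 6.60 and 6.70. The groups were tight and far apart. The fall of −1.01 ± 0.08, to 0.497 of the parental level, had the smallest p of the Kuramochi members (adjusted p = 0.000221, limma), and it lay between −1.06 and −0.98 whichever library was left out. In OVSAHO EZH2 rose from 8.26, 8.33 and 8.38 to 8.66, 8.71 and 8.80, by 0.40 ± 0.05 without overlap (adjusted p = 0.00300, limma). In EFO-21 it rose from 7.57, 7.52 and 7.49 to 7.63, 7.74 and 7.75, by 0.18 ± 0.05 (adjusted p = 0.0244, limma), and this call was lost without library 11, 12, 23 or 24 (adjusted p 0.0660 to 0.0791). OV-90, at 8.18 and 8.52 against 8.48, 8.49 and 8.50, overlapped (0.15, adjusted p = 0.348; −0.13 after the length adjustment). The Kuramochi effect differed from that of each other line (adjusted p between 3.62e-09 and 9.93e-08, limma).

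The other subunits of PRC2 and the H3K27 demethylases, 12 genes in all, were described beside EZH2. In Kuramochi 1 rose and 3 fell, and EED, the subunit that reads the mark, fell by 1.10 (adjusted p = 0.000471, limma), close to the −1.01 of EZH2. In OVSAHO 4 rose and 1 fell, with the accessory subunit AEBP2 up by 0.58 (adjusted p = 0.00290). In OV-90 6 rose and 1 fell, or 4 and 2 after the length adjustment, with JARID2 up by 1.58 (1.12 after that adjustment). In EFO-21 4 rose and 3 fell, with SUZ12, a core subunit, up by 0.50 (adjusted p = 0.000794, limma), while JARID2 fell by 0.31. Before the length adjustment the median difference of the list was 0.01, 0.15, 0.40 and −0.05 in Kuramochi, OVSAHO, OV-90 and EFO-21.

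Neighbouring genes were examined because a member can move together with the stretch of chromosome around it. Within 2 Mb of EZH2, 14 of 16 genes above the median level fell in resistant Kuramochi and none rose, with a median of −0.75. The nearest, CUL1, fell by 0.88 (adjusted p = 7.73e-05, limma) and PDIA4 by 0.73 (adjusted p = 0.000474). In OVSAHO, where EZH2 rose, the same 16 genes had a median of −0.0006, with 3 higher and 2 lower. The 3 that rose were CUL1 by 0.30 (adjusted p = 0.00652, limma), PDIA4 by 0.44 (adjusted p = 0.00583) and ZBED10P by 0.73. For TET2 in EFO-21 all 4 neighbours fell, with a median of −1.30: CENPE by 1.46, PPA2 by 1.27, INTS12 by 1.33 and AIMP1 by 0.66. In Kuramochi 2 of these 4 fell, including PPA2 by 1.03. These neighbours were named after their values were seen. Around DNMT3A, 23 of 28 neighbours rose and none fell in OVSAHO, with a median of 0.38 beside 0.43 for DNMT3A, but in Kuramochi 17 of the 28 rose and 1 fell while DNMT3A itself fell. DNMT1 stood against its surroundings in OVSAHO, where 29 of 59 neighbours fell and 4 rose, and UHRF1 in EFO-21 had 19 of 59 neighbours higher and 11 lower. Of all genes, 23.6% were called higher and 23.3% lower in Kuramochi. The shares were 17.1% and 16.2% in OVSAHO, and 25% and 23.4% in EFO-21. These shares include genes below the median level, whereas the neighbours all lie above it, so the sets are unlike. No share for genes above the median level alone is given. Copy number was not measured, and its part in these differences was not tested.

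**Figure D5:**
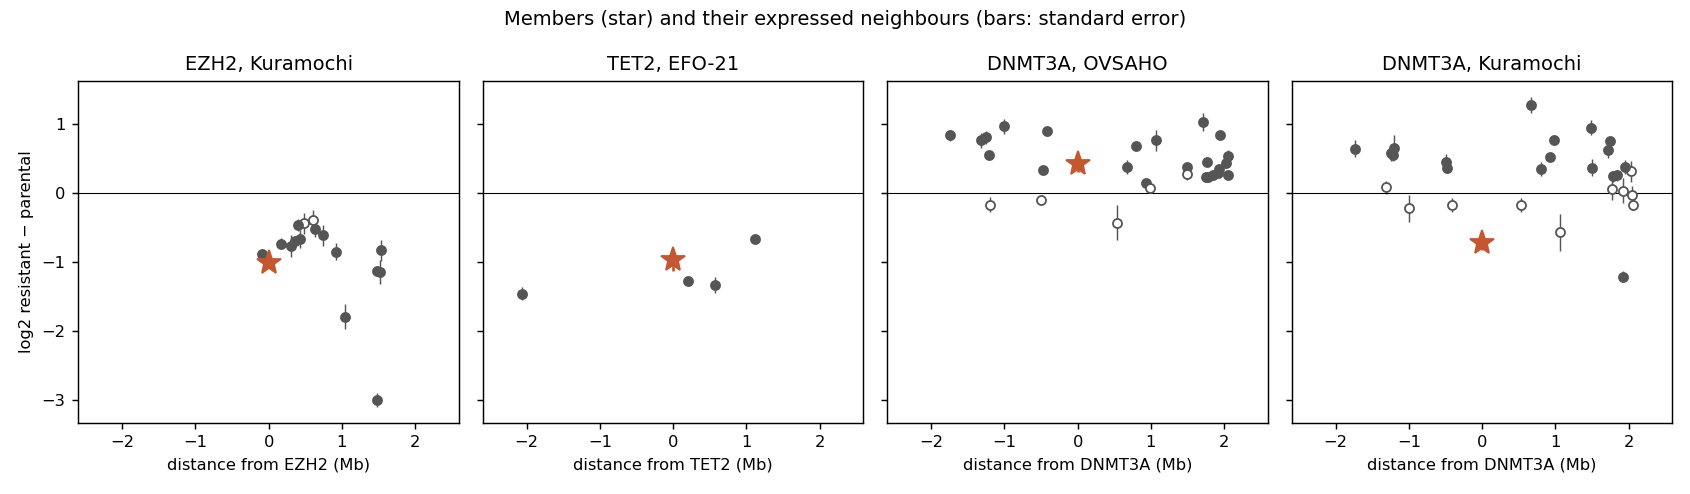
Log2 difference between resistant and parental libraries (y axis, with the standard error) of a member (star) and of its neighbours above the median level (circles, filled at an adjusted p under 0.05) by distance in Mb (x axis, between gene midpoints). EZH2 in Kuramochi and TET2 in EFO-21 lie among neighbours that are all below 0, DNMT3A in OVSAHO lies among neighbours mostly above 0, and DNMT3A in Kuramochi lies below most of its neighbours.

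Averaged over the 4 lines with equal weight, DNMT1 was higher by 0.45 ± 0.05 (adjusted p = 1.76e-06, limma) and UHRF1 by 0.42 ± 0.05 (adjusted p = 5.20e-07), each with a difference above 0 in 4 of 4 lines. After the length adjustment the averages were 0.27 (adjusted p = 1.92e-08) and 0.33 (adjusted p = 9.78e-07), with both genes below 0 in OV-90. TET3 (0.42 ± 0.15, adjusted p = 0.0194) and TET1 (0.36 ± 0.13, adjusted p = 0.0236) also passed, with differences above 0 in 3 of 4 lines each, but the rise of both came mainly from OV-90. Without OV-90 library 2 they no longer passed (adjusted p = 0.0790 and 0.0666), nor did they after the length adjustment (0.17, adjusted p = 0.139, and 0.14, adjusted p = 0.259). The other 6 members did not pass, but after the length adjustment DNMT3A (−0.29, adjusted p = 0.000391), EZH2 (−0.16, adjusted p = 0.000375) and TET2 (−0.38, adjusted p = 0.0221) passed as lower. These averages hide unlike lines. After that adjustment EZH2 was called lower in Kuramochi (−1.03) but higher in OVSAHO (0.36) and EFO-21 (0.15). TET2 was called lower in Kuramochi (−1.66) and EFO-21 (−1.04) but higher in OVSAHO (0.63). DNMT3A was called lower in Kuramochi (−0.64) and EFO-21 (−0.43) and was not called in OVSAHO or OV-90. Over all genes 58.4% passed this test, 29.8% higher and 28.6% lower. The effects of resistance differed between the lines for 9 of the 10 members, beside 75.1% of all genes, and 33 of the 60 pairwise differences of effects passed, beside a mean of 44.5% over all genes.

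The wider DNA methylation machinery, 22 measured genes outside the 10, was mixed in every line. In Kuramochi 5 rose and 8 fell, in OVSAHO 6 and 4, in OV-90 6 and 3, and in EFO-21 8 and 3. The medians, in that order and before the length adjustment, were −0.05, 0.10, 0.43 and 0.05. After that adjustment the OV-90 counts were 6 and 5. CDCA7, which brings the remodeller HELLS to chromatin, rose by 0.999 in OVSAHO (adjusted p = 0.000735, limma), where DNMT1 and UHRF1 rose. In EFO-21, where TET2 fell, TDG, the glycosylase that excises the oxidised bases made by TET enzymes, fell by 0.78 (adjusted p = 0.00135, limma). IDH2, which makes the 2-oxoglutarate that TET enzymes use, rose there by 0.92 (adjusted p = 5.76e-05, limma). IDH1, also on the list, went the other way in EFO-21, from a mean of 9.44 to 9.04 without overlap of the groups. In Kuramochi ZBTB33, a reader of methylated DNA, rose by 0.85 and CXXC5 fell by 1.04. In OV-90 ZBTB4 rose by 1.93 (1.47 after the length adjustment). Beside SETDB1 and TRIM28, 19 other genes of H3K9 methylation and HP1 were described. Of these 5 rose and 3 fell in Kuramochi, 6 and 1 in OVSAHO, 6 and 1 in OV-90, and 2 and 6 in EFO-21. Their medians, in that order and before the length adjustment, were 0.14, 0.11, 0.32 and −0.04. After that adjustment the OV-90 counts were 6 and 3. ATRX, which with DAXX keeps repeats in closed chromatin, rose by 1.03 in Kuramochi (adjusted p = 0.0149, limma) and by 1.48 in OV-90 (0.72 after the length adjustment). CBX5, which encodes HP1 alpha, rose by 1.09 in OVSAHO, and PPHLN1, of the silencing complex HUSH, fell by 0.65 in EFO-21.

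Transcripts of endogenous retroviruses, which DNA methylation and the TRIM28 and SETDB1 pathway are known to silence, were measured for 7 of 11 listed genes. The study named some of these genes from these libraries, so their direction is not independent evidence. In Kuramochi 3 rose and none fell. ERVMER34-1 rose there by 0.63 (adjusted p = 0.00915, limma), the mean of ERVV-1 went from 0.66 to 4.09 and that of ERVV-2 from 1.22 to 5.39, with parental libraries at or near the bottom of the table, so that no fold change is given. In EFO-21 1 rose and 3 fell: ERVV-2 fell by 2.30 (adjusted p = 0.000338, limma), ERVMER34-1 fell by 2.16, ERVV-1 fell by 1.13 and ERVK13-1 rose by 0.91. ERVV-1 and ERVV-2 are close copies, so the split of reads between them is uncertain. In OVSAHO ERVMER34-1 fell, from a mean of 5.11 to 1.62, and no other passed. In OV-90 ERVFRD-1 went from a mean of 0.20 to 3.82, from the bottom, ERVK13-1 rose by 0.69 (0.18 after the length adjustment, adjusted p = 0.452) and ERVMER34-1 fell by 0.94. The medians of the 7 genes were 0.12 in Kuramochi, 0.03 in OVSAHO, 0.48 in OV-90 and −0.63 in EFO-21. The table has 1 value per gene and none for retroelement families, so most retroelement transcripts were not examined.

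Of 13 genes that came from retrotransposons in evolution, 8 rose and 1 fell in Kuramochi (median 1.58), with LDOC1 going from 10.38 to 13.30 (adjusted p = 4.68e-06, limma). Among the 8, RTL3 (0.02 to 4.86) and PGBD5 (0.68 to 4.17) started at the bottom. The related genes RTL8A, RTL8B and RTL8C also rose, and the split of reads between them was not examined. In OVSAHO 3 rose and 5 fell, with the imprinted gene PEG10 up by 1.49, in OV-90 2 rose and 1 fell, and in EFO-21 3 rose and 3 fell (medians −0.00, 0.03 and 0.21). Of 9 measured germline genes that somatic cells keep silent by promoter methylation, 2 rose and 1 fell in Kuramochi, 3 rose in OVSAHO, 1 rose and 2 fell in OV-90, and 1 fell in EFO-21 (medians 0.17, 0.11, −0.33 and −0.20). Among them DPPA3, an inhibitor of UHRF1 in germ cells, fell by 2.38 in OV-90 (adjusted p = 0.00382, limma), where UHRF1 did not pass the test. Of 19 other genes listed as restricting retroelements, 7 rose and 5 fell in Kuramochi, and 6 rose and 2 fell in OVSAHO. In OV-90 4 rose and 8 fell, and in EFO-21 12 rose and 1 fell. The medians in the 4 lines, in that order, were 0.33, 0.12, −0.78 and 0.43. APOBEC3A, a cytidine deaminase, went from a mean of 2.05 to 7.76 in Kuramochi (adjusted p = 0.000679, limma), with some parental libraries at the bottom. It fell by 3.19 in OV-90. APOBEC3B, also on the list, moved the same way, from 3.84 to 9.51 in Kuramochi and from 7.98 to 5.27 in OV-90. The split of reads between APOBEC3A and APOBEC3B was not examined. BST2, which tethers budding particles, went from 9.07 to 4.06 in Kuramochi (adjusted p = 1.09e-05, limma).

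The 2 genes whose profile over the 23 libraries was most like each member, among genes above the median level, are given as a description. The libraries share their lines, so these correlations mostly follow levels that differ between lines. They were UPF1 and PRKACA for DNMT1, C3orf52 and PPP5C for DNMT3A, APPL2 and FGFR4 for DNMT3B, LOC728688 and ASIC1 for UHRF1, ACTG1 and CASK for TET1, KLHL8 and G3BP2 for TET2, PHF3 and HIPK1 for TET3, EYA4 and ID3 for SETDB1, PTGR1 and PLEKHA4 for TRIM28, and TFDP1 and ZBED10P for EZH2. Pearson correlations ran from 0.871 (ASIC1 with UHRF1) to 0.982 (UPF1 with DNMT1, and PTGR1 with TRIM28). TFDP1, the partner of E2F factors, fell by 1.60 in resistant Kuramochi (adjusted p = 7.54e-05, limma) and rose by 0.15 in OVSAHO (adjusted p = 0.0221). These were the directions of EZH2 in those lines. TFDP1 was picked for its correlation with EZH2 in these same libraries, so the shared directions are not independent evidence. UPF1 had a correlation of 0.982 with DNMT1 but a difference of −0.02 in Kuramochi and 0.32 in EFO-21 (adjusted p = 0.00391), where DNMT1 differed by 0.87.

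Markers of other cell types were checked because RNA of other cells could carry some of these genes. Of 12 markers, 3 rose and 5 fell in Kuramochi, 3 and 6 in OVSAHO, 1 and 1 in OV-90, and 3 and 2 in EFO-21. The macrophage marker CD68 rose by 2.79 in Kuramochi, 0.86 in OV-90 and 1.28 in EFO-21 but went from 7.23 to 6.23 in OVSAHO. The stromal gene DCN rose by 4.22 in OVSAHO and fell by 2.52 in Kuramochi, and COL1A1 went from 4.13 to 2.58 in OVSAHO and fell by 1.04 in Kuramochi. LYZ fell by 3.56 in OVSAHO, PECAM1, an endothelial marker, fell by 2.89 in OV-90, and the leukocyte marker PTPRC averaged 0.54 to 4.58 over the groups. LYZ was high in parental OV-90, at 12.06, and in resistant OV-90, at 12.43. The libraries came from established cancer cell lines, so the level of such a marker does not show that cells of that type were present. The part of other cells in the differences of the 10 genes was not tested.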

How the data were processed

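RNA of 4 established ovarian cancer cell lines, parental and prexasertib-resistant, was sequenced by the authors from stranded mRNA libraries. Reads were aligned by the authors to GRCh37/hg19, exons with few reads were dropped, and 1 value per gene was made by a robust linear model over exons (16448 genes) or a mean of log2 values (5210 genes), quantile normalised and deposited on the log2 scale. The number of exons behind each value, a deposited column of another kind, was not used. With no counts in the table, depth is unknown, and the libraries of a group alone give the error. Quantile normalisation hides a shift common to most genes. Table columns name a line and its resistance but no replicate number.

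For 20745 of 21658 genes (95.8%) a symbol was matched from a RefSeq table (GRCh38.p14, also the source of the promoters). Positions and exonic lengths came from GENCODE v44 lifted to GRCh37. Each line was fitted alone in limma 3.58.1 (R 4.3.3; lmFit, eBayes with trend, resistant minus parental) on all genes, with no pseudocount or filter, Benjamini-Hochberg adjustment over all genes, two-sided, and calls at an adjusted p under 0.05. Averages, effects between lines (F test and 6 pairs) and parental lines were tested in 1 fit of 8 group means. An exact permutation test of 3 against 3 libraries cannot go below 0.1 and was not used. The fits were tested on simulated data. The length adjustment subtracts in each library a lowess trend (span 0.3) of deviations from gene means on log2 exonic length (19597 genes). Beside the members, the text names from each list the called gene with the largest rise and fall in a line among genes above the median level, any endogenous retrovirus or proliferation gene, and the 2 genes most correlated with each member; 1 gene that this rule names is not reported here. IDH1, RTL3, RTL8B and PGBD5 were named outside that rule, after their values were seen. The members and lists were chosen with earlier results of these data known.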

Additional observations from a re-analysis of the deposited data

Results flagged for a closer look

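For 9 of the 10 genes the effect of resistance differed between the 4 lines in an F test of the 4 differences (limma, Benjamini-Hochberg over all genes), which 75.1% of all genes also passed. The adjusted p was 0.00312 for DNMT1, 4.55e-07 for DNMT3A, 8.06e-06 for DNMT3B, 4.18e-05 for UHRF1, 0.00365 for TET1, 6.93e-05 for TET2, 0.000634 for TET3, 0.00900 for SETDB1 and 6.06e-09 for EZH2. The differences ran from 0.19 to 0.87 for DNMT1 and from 0.08 to 0.84 for UHRF1, above 0 in every line, but after the length adjustment both were below 0 in OV-90 (−0.23 and −0.15). They ran from −0.72 to 0.43 for DNMT3A, from −0.68 to 0.52 for DNMT3B, from −1.74 to 1.30 for TET2 and from −1.01 to 0.40 for EZH2, each with calls in both directions. DNMT3A and DNMT3B had no call for a rise after the length adjustment. TET1 (−0.24 to 1.45), TET3 (−0.72 to 1.70) and SETDB1 (−0.21 to 0.17) also changed sign between lines, without calls on both sides. After the length adjustment all 10 genes passed, TRIM28 (adjusted p = 0.0321) included. Groups held 2 or 3 libraries, so no library was tested as an outlier.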

How the results depend on the processing

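With 1 library left out, 408 of 460 values of single genes kept their direction and their side of the threshold, and under the other settings 267 of 325 did. Calls of 10 genes numbered 3 to 4 in Kuramochi with 1 library left out, 4 to 6 in OVSAHO, 0 to 7 in OV-90, 3 to 5 in EFO-21 and 3 to 5 on average over the lines, and 9 to 9 for differences between lines. The 0 in OV-90 came without any 1 of libraries 13, 14 and 15. At 2-fold or more there were 2 calls in Kuramochi, 0 in OVSAHO, 3 in OV-90 and 0 in EFO-21, and at 1.5-fold or more 2 in OVSAHO, 3 in OV-90 and 0 on average. The length adjustment left 2 in OV-90. On average over the lines there were 4 calls, 2 with the line as an additive block and 9 without Kuramochi.

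Directions reversed after the length adjustment for SETDB1 in OVSAHO (−0.0094) and, in OV-90, for DNMT1 (−0.23), DNMT3A (−0.32), UHRF1 (−0.15), SETDB1 (−0.18) and EZH2 (−0.13), none past the threshold. Averages reversed as follows: DNMT3A to 0.15 without Kuramochi and 0.031 without EFO-21, TET2 to 0.39 and 0.13, and EZH2 to 0.24 without Kuramochi. The average of DNMT3B became −0.0034 with the additive block, −0.063 with the length adjustment, −0.14 without OV-90 and −0.055 without EFO-21, and that of SETDB1 −0.069 with the length adjustment, −0.00059 without OV-90 and −0.029 without EFO-21. With 1 library left out, values near 0 changed sign for TET1 (−0.15 to 0.35) and TRIM28 (−0.012 to 0.077) in Kuramochi, DNMT3B in OVSAHO (−0.073 to 0.053), EZH2 in OV-90 (−0.023 to 0.32), TRIM28 in EFO-21 (−0.0016 to 0.078) and the average of DNMT3B (−0.0073 to 0.053). The causes were not tested. Of the calls, TRIM28 in OVSAHO (adjusted p = 0.0659) and DNMT3A in OV-90 (0.0545) were lost without the mean-variance trend, TET2 in OVSAHO in 1 fit of the 8 groups (0.0783), and EZH2 in EFO-21 under both (0.0503 and 0.0594). Recentring moved libraries by −0.076 to 0.038. TET1 lies below the 25th percentile filter and has no value there. No paired analysis was possible because the columns carry no replicate numbers. Unknown depth and 2 or 3 libraries a group limit what small differences could be seen.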
